A study of Mus musculus with 13 samples.

Results

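Signals of the epidermal growth factor (EGF) and hepatocyte growth factor (HGF) families were followed here in mouse liver as the mRNAs of 9 genes out of the 54532 in the count table. They were taken by name and comprise 3 receptors (Egfr, Erbb3 and Met), 5 ligands of the EGF family (Areg, Hbegf, Ereg, Tgfa and Btc) and the ligand of Met (Hgf). RNA was sequenced from liver tissue of wild-type C57 BL6 mice, 8 weeks old, in 13 libraries. The injury was made with D-galactosamine (GalN) at 500 mg/kg, an amino sugar that blocks RNA synthesis in hepatocytes, together with lipopolysaccharide (LPS) at 5 µg/kg, a bacterial cell wall component that drives cytokine release. Both were injected into the peritoneum, and livers were collected 6 h later. The pretreated group (n = 4) received 300 µg/kg dmPGE2, a stable analogue of prostaglandin E2, 1 h before GalN/LPS. The GalN/LPS group (n = 3) received the injury alone, the dmPGE2 group (n = 3) received 300 µg/kg dmPGE2 with no injury, and the saline group (n = 3) received saline. For the dmPGE2 group the labels give no injection time beyond 6 h in the titles. The time from dmPGE2 to collection may thus differ from that of the pretreated group. No group carried an altered allele. The labels do not say that each library came from its own animal, so the p-values measure the spread between these libraries.

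Ligands of the EGF family are made as membrane-bound precursors, cut free by metalloproteases of the ADAM family, and bind receptors of the ERBB family, of which Egfr is the prototype. Areg (amphiregulin), Tgfa (transforming growth factor alpha) and Hbegf, Ereg and Btc (heparin-binding EGF-like growth factor, epiregulin and betacellulin) all bind Egfr. Erbb3 binds neuregulins and signals through a partner receptor because its own kinase is weak. Hgf is secreted as an inactive chain, mainly by stellate and endothelial cells in liver, is activated by serine proteases and acts on Met of hepatocytes. Both receptor systems drive hepatocyte proliferation and survival after partial hepatectomy, through the RAS-ERK and PI3K-AKT cascades.

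The 4 genes for EGF-family ligands on chromosome 5 lie in the order Epgn, Ereg, Areg and Btc, over 375.5 kb of the deposited annotation (GRCm38). No other protein-coding gene lies between them. Ereg lies at chr5:91074622-91093646 and Areg at chr5:91139599-91148432, both on the plus strand, 46.0 kb apart. Btc lies 208.8 kb beyond Areg, at chr5:91357261-91402994 on the minus strand. Epgn, which encodes epigen, had 1 read in the 13 libraries together. Of the remaining genes, 5 are at chr11:16752203-16918158 (Egfr, plus strand), chr10:128567523-128589652 (Erbb3, minus strand), chr6:17463800-17573980 (Met, plus strand), chr6:86195223-86275719 (Tgfa, plus strand) and chr5:16553495-16620152 (Hgf, plus strand).

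Promoter sequences from RefSeq (GRCm38.p6) were used for 6 of the 9 genes, each spanning 250 bases before and 50 bases after a listed start. None was available for Erbb3 and Ereg, and that of Hbegf was not searched. Both strands were searched for 4 motifs, the cAMP response element TGACGTCA, the AP-1 element TGANTCA, the kappa B element and the TATA box TATAAA. The first of these binds CREB, a factor activated by the cAMP that prostaglandin E2 raises through its EP2 and EP4 receptors. Among 32851 promoters of the same length, 1.79% held the cAMP response element, 7.81% the AP-1 element, 8.46% the kappa B element and 13.6% the TATA box. The 3 promoters below are shown because Areg was the ligand nearest to the detection limit, Met a receptor that was low in both injured groups, and Hgf the ligand of Met. Capitals mark the motifs, at -61 to -54 (cAMP response element) and -31 to -26 (TATA box) in Areg and at -54 to -48 (AP-1) in Met, counted from the listed start. Met's listed start lies 157 bases downstream of the gene's start in the deposited annotation. Hgf has another listed start, 406 bases downstream of its start in that annotation, whose window is not printed. Neither Hgf window held any of the 4 motifs.
Areg, chr5:91139349-91139648, plus strand: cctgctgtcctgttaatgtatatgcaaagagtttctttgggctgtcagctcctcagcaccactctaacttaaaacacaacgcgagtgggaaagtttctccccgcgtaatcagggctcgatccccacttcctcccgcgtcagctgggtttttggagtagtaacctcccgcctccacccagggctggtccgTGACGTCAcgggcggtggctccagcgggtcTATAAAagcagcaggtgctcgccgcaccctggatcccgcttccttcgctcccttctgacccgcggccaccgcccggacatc
Met, chr6:17463707-17464006, plus strand: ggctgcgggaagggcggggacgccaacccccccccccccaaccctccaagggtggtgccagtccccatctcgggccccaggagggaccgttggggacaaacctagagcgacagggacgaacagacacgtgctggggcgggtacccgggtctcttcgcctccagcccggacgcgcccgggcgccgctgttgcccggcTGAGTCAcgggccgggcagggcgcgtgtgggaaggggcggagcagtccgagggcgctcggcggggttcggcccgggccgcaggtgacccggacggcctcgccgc
Hgf, chr5:16553245-16553544, plus strand: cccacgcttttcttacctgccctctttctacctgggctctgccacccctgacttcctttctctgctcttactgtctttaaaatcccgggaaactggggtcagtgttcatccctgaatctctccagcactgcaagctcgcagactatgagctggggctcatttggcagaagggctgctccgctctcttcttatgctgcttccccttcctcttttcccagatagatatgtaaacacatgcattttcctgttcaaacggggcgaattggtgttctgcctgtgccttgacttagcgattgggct
Of the other promoters, that of Tgfa held the kappa B element at 23 to 32 bases after the listed start, and those of Egfr and Btc held none of the 4. A match is a run of letters in this window and not a measured binding site.

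The libraries held 16910816 to 17649675 counted reads in pretreated livers, 16575171 to 17709049 in GalN/LPS livers, 14829838 to 20777809 in dmPGE2 livers and 17018104 to 18425824 in saline livers. Levels below are CPM, the reads of a gene relative to its library's total after scaling by TMM, a method that evens out libraries in which few genes take many reads. The TMM factors were 0.683 to 0.830 in pretreated, 0.904 to 1.14 in GalN/LPS, 1.16 to 1.28 in dmPGE2 and 1.17 to 1.18 in saline livers, so they moved with the groups. With plain library totals the median log2 fold change of all genes tested shifted by -0.51 for pretreated against GalN/LPS livers, by -0.68 for pretreated against saline livers and by -0.17 for GalN/LPS against saline livers. Where this changed a call of the 9 genes, the value is given beside the gene. Of the 9 genes 8 passed the filter on low counts, and Areg, with 8 reads in all, did not. The 8 hepatocyte markers, such as Alb and Ttr, were detected in all libraries, at a summed level of 136864 to 216267 CPM in pretreated, 92819 to 131988 in GalN/LPS, 66240 to 73420 in dmPGE2 and 89008 to 104009 in saline livers.

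Per length of transcript, in the deposited FPKM, Egfr was the most abundant of the 9 mRNAs in every group. It averaged 50.1 ± 9.83 FPKM in pretreated (SD, n = 4), 27.4 ± 6.08 in GalN/LPS, 48.9 ± 3.45 in dmPGE2 and 49.9 ± 4.37 in saline livers (SD, n = 3 each). In saline livers Erbb3 (14.0 FPKM), Met (8.91 FPKM) and Tgfa (2.10 FPKM) came next, with ranges that did not overlap their neighbours. Btc (0.274 FPKM), Hbegf (0.156), Hgf (0.117) and Ereg (0.0542) followed, and each overlapped the next, while Areg was listed at 0. In GalN/LPS livers Hbegf stood second, at 5.50 FPKM, and its range overlapped that of Erbb3 (3.03 FPKM). Tgfa (2.23 FPKM), Met (2.08), Hgf (1.44), Ereg (0.880) and Btc (0.504) followed there, each overlapping the next. In pretreated livers the receptors again took the 3 highest places, with Erbb3 at 4.60 FPKM and Met at 2.27 FPKM, and in dmPGE2 livers the order of the leading 4 was that of saline livers.

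**Figure D1:**
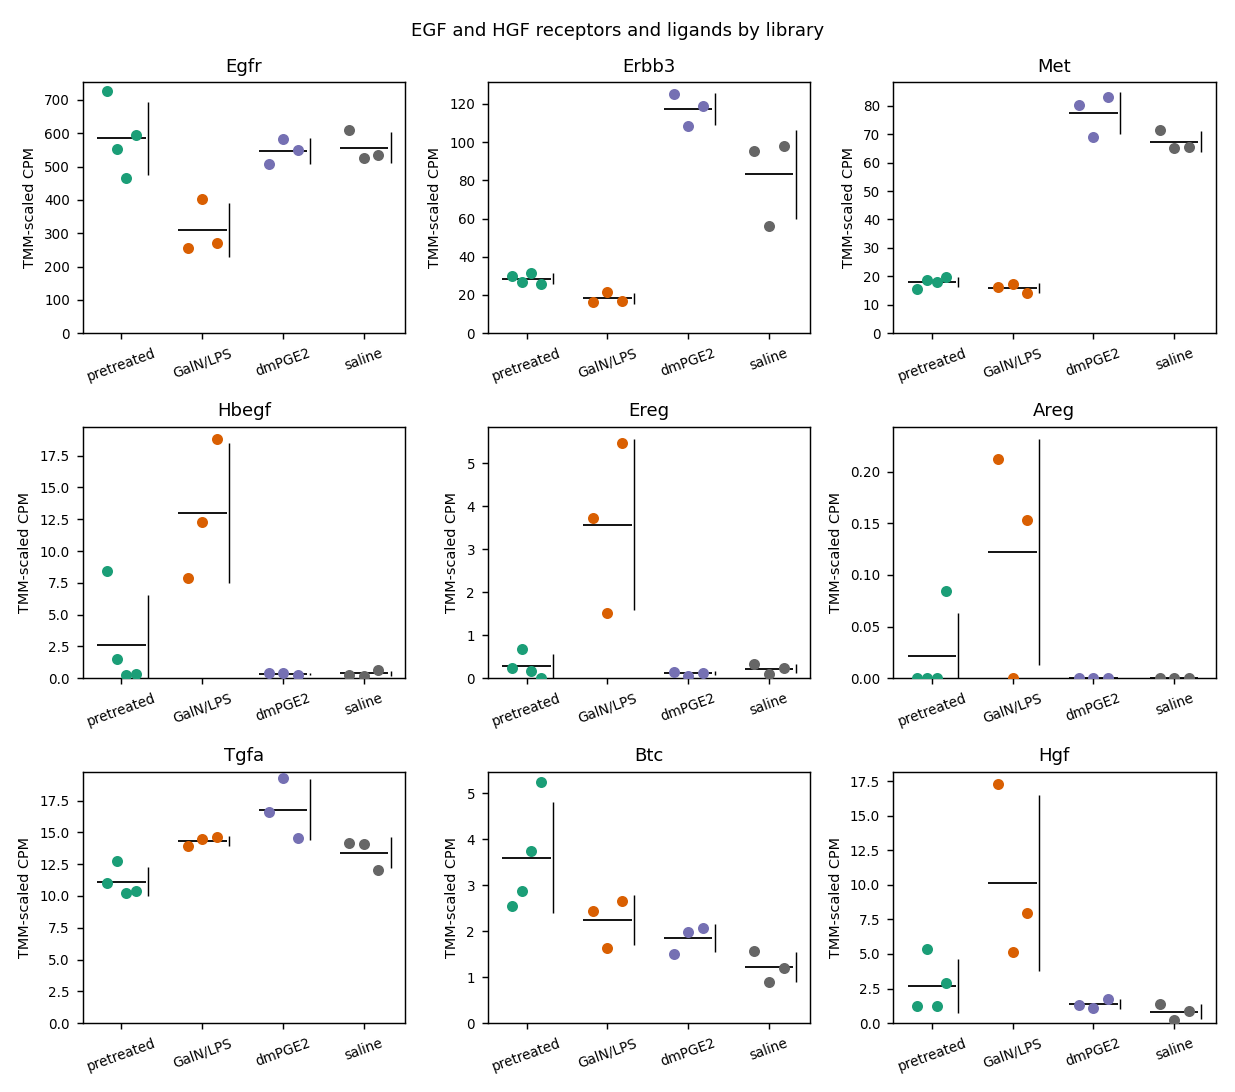
Level of each of the 9 genes, in TMM-scaled CPM on a linear axis that starts at 0, in the pretreated (4), GalN/LPS (3), dmPGE2 (3) and saline (3) libraries. Points are libraries, the horizontal line is the mean and the thin vertical line is 1 SD on either side, drawn no lower than 0. Erbb3 and Met sit low in both injured groups, while Hbegf, Ereg and Hgf sit high in the GalN/LPS libraries.

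The comparison of GalN/LPS with saline livers asked what the injury did to these signals. All 3 receptors fell and 4 ligands rose, while Tgfa was not past the test and Areg could not be tested. By edgeR's quasi-likelihood test with Benjamini-Hochberg adjustment over 14280 genes, 7 of the 8 genes tested changed (4 higher, 3 lower). Of all genes tested 52.9% changed, 27.4% higher and 25.6% lower. The same 7 had ranges that did not overlap between the groups, as did 30.3% of all genes in the higher and 29.5% in the lower direction.

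Among the receptors, Met, the HGF receptor, had 16.3, 17.2 and 14.1 CPM in GalN/LPS livers against 71.5, 65.2 and 65.5 CPM in saline livers. It was 4.24-fold lower (log2 fold change -2.08 ± 0.13 SE, adjusted p = 3.455e-09). Erbb3, the neuregulin receptor, had 16.1, 21.6 and 16.9 CPM in GalN/LPS livers against 95.4, 56.0 and 97.8 CPM in saline livers, a 4.57-fold fall (-2.19 ± 0.19, adjusted p = 1.246e-07). Every GalN/LPS library lay below every saline library for both, although saline 2 was lower than the other saline libraries for Erbb3. Egfr, the receptor of the 5 EGF-family ligands, had 256, 403 and 271 CPM in GalN/LPS livers against 611, 526 and 533 CPM in saline livers. Its fall was smaller, 1.80-fold (-0.84 ± 0.19, adjusted p = 0.001505), and GalN/LPS 2 was the highest of its group.

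Among the EGF-family ligands, Hbegf (chr18:36504929-36515805, minus strand), which is also the receptor of diphtheria toxin in humans, had 7.86, 12.3 and 18.8 CPM in GalN/LPS livers against 0.275, 0.199 and 0.624 CPM in saline livers. It was 34.8-fold higher (5.12 ± 0.91, adjusted p = 0.0001863; 5.72 on the log2 scale without saline 3), and the groups did not overlap. Ereg had 3.72, 1.51 and 5.48 CPM in GalN/LPS livers against 0.321, 0.0996 and 0.240 CPM in saline livers, where 14 reads were counted in all. It was 15.7-fold higher (3.97 ± 0.65, adjusted p = 9.76e-05). Areg, its neighbour on chromosome 5, had 4, 0 and 3 reads in the GalN/LPS libraries and 0 in each saline library. Over the group this is 0.129 CPM (95% Poisson interval 0.0519 to 0.266, counting error only). Too few reads were counted for more than detection to be said of Areg.

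Btc and Tgfa were detected in every saline library. Btc had 2.44, 1.64 and 2.66 CPM in GalN/LPS livers against 1.56, 0.897 and 1.20 CPM in saline livers. It was 1.84-fold higher (0.88 ± 0.33, adjusted p = 0.03464), and its call was lost with library totals (0.74), in 4 other alternative settings (adjusted p up to 0.1808 over all alternatives) and without GalN/LPS 1, GalN/LPS 3, saline 2 or saline 3. Tgfa had 13.9, 14.5 and 14.6 CPM in GalN/LPS livers against 14.2, 14.1 and 12.01 CPM in saline livers. The groups overlapped, with a log2 difference of 0.10 (95% interval -0.21 to 0.40, adjusted p = 0.5967).

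Hgf had 17.3, 5.17 and 7.94 CPM in GalN/LPS livers against 1.38, 0.249 and 0.865 CPM in saline livers. It was 12.04-fold higher (3.59 ± 0.59, adjusted p = 0.0001031; 2.96 on the log2 scale without GalN/LPS 1), so that the ligand and its receptor Met moved in opposite directions. Stellate cell and fibroblast markers were higher with it, with 9 of 11 called higher and 0 lower and a summed level of 459 to 862 CPM in GalN/LPS livers against 109 to 176 CPM in saline livers. All 9 sinusoidal endothelial markers and 7 of 8 Kupffer cell and macrophage markers were also called higher. In these bulk samples fewer cells of a type and less RNA per cell cannot be told apart, and the part of these cells in the ligands' change was not tested.

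**Figure D2:**
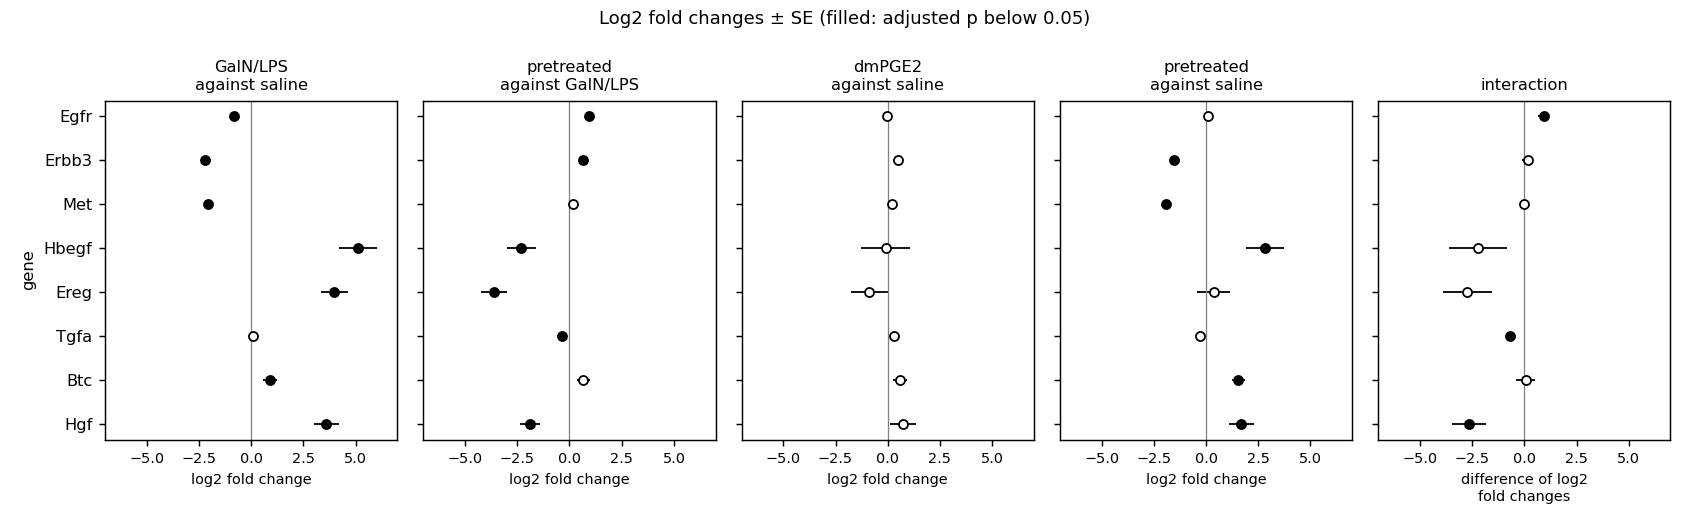
Log2 fold changes of the 8 genes tested, in each of the 5 comparisons; points are estimates, bars are 1 SE, and filled points have an adjusted p below 0.05. The last panel gives the difference of log2 fold changes, the effect of dmPGE2 in injured livers less that in uninjured livers. The receptors lie left of 0 and Hbegf, Ereg, Btc and Hgf right of 0 for GalN/LPS against saline, while no point is filled for dmPGE2 against saline.

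The comparison of pretreated with GalN/LPS livers asked what dmPGE2 given ahead of the injury changed. Egfr and Erbb3 rose, Hbegf, Ereg, Tgfa and Hgf fell, and Btc and Met were not past the test. Thus 6 of the 8 genes tested changed (2 higher, 4 lower), beside 54.5% of all genes, 24.4% higher and 30.1% lower. With library totals 5 of the 8 changed (1 higher, 4 lower), beside 616 genes higher and 6804 lower of all tested, against 3481 higher and 4299 lower with TMM. The ranges did not overlap for 2 higher (Egfr, Erbb3) and 2 lower genes (Ereg, Tgfa), as for 22.7% of all genes in the higher and 27.7% in the lower direction. This comparison shares the GalN/LPS libraries with the one above, so opposite signs in both are not separate evidence.

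Egfr had 728, 554, 466 and 594 CPM in pretreated livers against 256, 403 and 271 CPM in GalN/LPS livers. It was 1.89-fold higher (0.92 ± 0.18, adjusted p = 0.0007959), and all 4 pretreated libraries lay above all 3 GalN/LPS libraries after TMM scaling. With library totals the rise was smaller (0.43), and the call held. The ranges overlapped there, since pretreated 3 had 5583 of 16910816 reads and GalN/LPS 2 had 6395 of 17563505 reads. Erbb3 had 30.2, 26.7, 31.6 and 25.9 CPM in pretreated livers against 16.1, 21.6 and 16.9 CPM in GalN/LPS livers. The 1.57-fold rise (0.65 ± 0.18, adjusted p = 0.006242) was not past the test with library totals (0.16, adjusted p = 0.4721). Of the 8 hepatocyte markers 6 were also called higher and 0 lower (median 0.67). The part of hepatocyte RNA in the rises of Egfr and Erbb3 was not tested. Met differed from the other receptors, with 15.6, 18.7, 17.8 and 19.9 CPM in pretreated livers against 16.3, 17.2 and 14.1 CPM in GalN/LPS livers. The groups overlapped, the log2 difference was 0.18 (95% interval -0.08 to 0.44, adjusted p = 0.2254), and its sign turned with library totals (-0.33).

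Ereg had 0.238, 0.683, 0.167 and 0 CPM in pretreated livers against 3.72, 1.51 and 5.48 CPM in GalN/LPS livers. It fell 12.2-fold (-3.61 ± 0.61, adjusted p = 0.0002425), and by 4.64 on the log2 scale without pretreated 2, with 15 reads counted in the 4 pretreated libraries. Hbegf had 8.41, 1.50, 0.250 and 0.338 CPM in pretreated livers against 7.86, 12.3 and 18.8 CPM in GalN/LPS livers. The fall was 4.92-fold (-2.30 ± 0.67, adjusted p = 0.009888), but the groups overlapped, since pretreated 1 was higher than GalN/LPS 1. Without pretreated 1 the difference was -4.13, and without GalN/LPS 3 the Hbegf call was lost (-1.93). Pretreated 1 also had the highest summed neutrophil markers of its group, 956 CPM, against 358 to 469 CPM in the other pretreated libraries. Among uninjured livers dmPGE2 2 had 759 CPM of these markers, with Hbegf at 0.406 CPM. That sum may not stand for the whole list. For dmPGE2 against saline livers 0 of the 8 neutrophil markers were called (median log2 fold change -0.24). The part of neutrophils in the level of Hbegf was not tested. Areg had 0, 0, 0 and 1 read in pretreated livers against 4, 0 and 3 reads in GalN/LPS livers, too few for a comparison.

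Tgfa had 11.0, 12.8, 10.3 and 10.4 CPM in pretreated livers against 13.9, 14.5 and 14.6 CPM in GalN/LPS livers. The fall of 1.29-fold (-0.37 ± 0.14, adjusted p = 0.03388) lost its call without GalN/LPS 1, 2 or 3, pretreated 1, 3 or 4, saline 1 or dmPGE2 1, with no filter (adjusted p = 0.1013) and in a fit of these groups alone (adjusted p = 0.06836), although its direction held. Btc had 2.54, 2.87, 3.75 and 5.24 CPM in pretreated livers against 2.44, 1.64 and 2.66 CPM in GalN/LPS livers. The groups overlapped, with a log2 difference of 0.67 (95% interval 0.03 to 1.30, adjusted p = 0.07072), which passed the test without pretreated 1 (0.80).

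Hgf had 1.27, 5.33, 1.25 and 2.88 CPM in pretreated livers against 17.3, 5.17 and 7.94 CPM in GalN/LPS livers. It fell 3.73-fold (-1.90 ± 0.49, adjusted p = 0.004785), and the groups overlapped, since pretreated 2 was slightly above GalN/LPS 2. Without GalN/LPS 1, the highest library, the fall was -1.27 and not past the test (adjusted p = 0.05676), and without pretreated 2 it was -2.50. Stellate cell and fibroblast markers fell with Hgf, 9 of 11 called lower and 0 higher, with summed levels of 117, 380, 153 and 233 CPM in pretreated livers against 862, 459 and 685 CPM in GalN/LPS livers. Pretreated 2, with the most Hgf of its group, also had the most stellate and endothelial marker RNA (337 CPM for endothelium, against 165 to 204 CPM in the other pretreated libraries). All 9 endothelial and all 8 Kupffer cell and macrophage markers were called lower, and their part in the fall of Hgf was not tested.

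**Figure D3:**
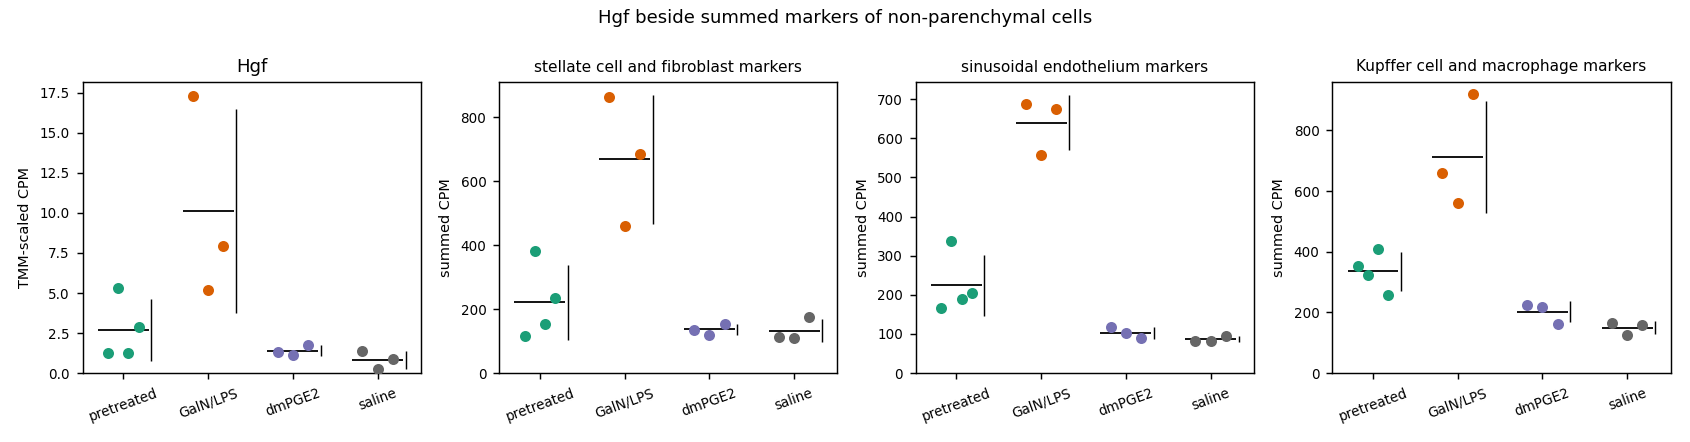
Hgf in TMM-scaled CPM beside the summed CPM of marker genes for stellate cells and fibroblasts (11 genes), sinusoidal endothelium (9) and Kupffer cells and macrophages (8), by library, on linear axes that start at 0. Points are libraries, horizontal lines means and vertical lines 1 SD on either side, drawn no lower than 0. Hgf and all 3 sums are highest in GalN/LPS livers, and pretreated 2 is the highest pretreated library for Hgf and for the stellate and endothelial sums.

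The comparison of dmPGE2 with saline livers asked what dmPGE2 did with no injury. None of the 8 genes tested was past the test (0 higher, 0 lower), and 0% of all 14280 genes was called. At an unadjusted p under 0.05 there were 1990 genes, and DESeq2 called 277. The ranges of Erbb3 and Tgfa were higher without overlap, as for 14.3% of all genes, and no tested gene of the 8 was lower without overlap, as 12% of all genes were. Erbb3 had 125, 109 and 119 CPM in dmPGE2 livers against 95.4, 56.0 and 97.8 CPM in saline livers (log2 difference 0.50, 95% interval 0.12 to 0.88, adjusted p = 0.2265). Tgfa had 16.6, 19.3 and 14.6 CPM in dmPGE2 livers against 14.2, 14.1 and 12.01 CPM in saline livers (0.32, 95% interval 0.02 to 0.63, adjusted p = 0.3248). For Egfr and Met the intervals were narrow, -0.43 to 0.38 around -0.03 for Egfr and -0.06 to 0.46 around 0.20 for Met. For the scarce ligands they were wide, from -2.61 to 2.40 for Hbegf, -2.78 to 1.01 for Ereg, -0.12 to 1.29 for Btc and -0.60 to 2.08 for Hgf, so that at this depth changes of several fold were not detectable for Hbegf and Ereg. Areg had no read in either group, and 0 reads allow up to 0.0444 CPM in dmPGE2 livers and 0.0479 CPM in saline livers (3 counts over the group).

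The comparison of pretreated with saline livers asked what of the injury remained. Of the 8 genes tested 5 changed (3 higher, 2 lower), beside 65% of all genes, 34.8% higher and 30.2% lower. With library totals also 5 changed, but 1 was higher and 4 lower, beside 1683 genes higher and 6803 lower of all tested, against 4969 higher and 4313 lower with TMM. Btc was higher and Erbb3 and Met were lower without overlap, as were 32.6% and 29.2% of all genes in these directions. Met was still 3.74-fold lower (-1.90 ± 0.12, adjusted p = 5.093e-09) and Erbb3 2.91-fold lower (-1.54 ± 0.17, adjusted p = 1.488e-06). Egfr was at 466 to 728 CPM in pretreated livers and 526 to 611 CPM in saline livers, a log2 difference of 0.07 (95% interval -0.31 to 0.45, adjusted p = 0.7382). With library totals Egfr was lower in pretreated livers (-0.61, adjusted p = 0.001832), so the direction of this difference depends on the scaling.

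Btc was the ligand furthest above saline relative to its spread, at 2.54 to 5.24 CPM in pretreated livers and 0.897 to 1.56 CPM in saline livers. It was 2.92-fold higher (1.55 ± 0.32, adjusted p = 0.000473). Hbegf was 7.07-fold higher (2.82 ± 0.92, adjusted p = 0.01375), but without pretreated 1 the difference was 0.99 and not past the test (adjusted p = 0.1969), and without saline 3 it was 3.43. The Hbegf call was also lost with library totals (2.14, adjusted p = 0.05778) and in all 3 limma fits (adjusted p = 0.1546, 0.2036 and 0.2903). Hgf was 3.23-fold higher (1.69 ± 0.59, adjusted p = 0.02021), and this call was lost without pretreated 2 (1.09, adjusted p = 0.1112), without saline 2 (1.27), with library totals (1.05, adjusted p = 0.1746), in a fit of these groups alone (1.52) and in all 3 limma fits (0.27 to 1.00). Ereg was 0.36 apart on the log2 scale (95% interval -1.32 to 2.04, adjusted p = 0.7038). Tgfa was not past the test (-0.27 ± 0.14, adjusted p = 0.09648), and it passed the test with library totals (-0.94), RLE size factors (-0.33), DESeq2 (-0.33), a fit of these groups alone (-0.44) and limma on log2(FPKM + 0.1) (-0.32), and without GalN/LPS 3 (-0.39) or pretreated 2 (-0.34).

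Whether dmPGE2 acted differently in injured and uninjured livers was tested as the interaction, the difference between pretreated and GalN/LPS livers less that between dmPGE2 and saline livers. It was past the test for 3 of the 8 genes (1 higher, 2 lower), beside 35% of all genes, 15.4% higher and 19.6% lower. With library totals also 3 were, all 3 lower, beside 182 genes higher and 5209 lower of all tested, against 2202 higher and 2797 lower with TMM. For Egfr it was 0.94 ± 0.26 on the log2 scale (adjusted p = 0.01327), made of 0.92 in injured and -0.03 in uninjured livers. With library totals it was 0.39 (adjusted p = 0.1684). The interaction was also past the test for hepatocyte markers, 6 higher and 0 lower of 8 (median 1.06), whose part was not tested. For Tgfa it was -0.69 ± 0.20 (adjusted p = 0.01583), made of -0.37 in injured and 0.32 in uninjured livers, and the call was lost without dmPGE2 2 (-0.57). For Hgf it was -2.64 ± 0.80 (adjusted p = 0.02023), made of -1.90 in injured and 0.74 in uninjured livers, and the call was lost without GalN/LPS 1 (-2.01) or dmPGE2 3 (-2.42) and in the unfiltered limma fit (-2.23). Without pretreated 2 it was -3.24. Ereg (-2.72 ± 1.19, adjusted p = 0.0843) and Hbegf (-2.20 ± 1.39, adjusted p = 0.227) were not past the test, but Hbegf was without pretreated 1 (-4.03, adjusted p = 0.004567), and Ereg was without GalN/LPS 2 (-3.07) or pretreated 2 (-3.76). Ereg also passed with DESeq2 (adjusted p = 0.03136), with no filter (0.02353) and in all 3 limma fits, and Hbegf with no filter (0.0005708) and in the filtered limma fits. For Erbb3, Met and Btc the interaction was 0.15, -0.02 and 0.08, with 95% intervals of -0.38 to 0.69 for Erbb3, -0.39 to 0.35 for Met and -0.88 to 1.04 for Btc. With library totals the interaction of Met was -0.60 and past the test (adjusted p = 0.02974).

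The other genes of both pathways were described by 7 lists of 76 genes, of which 69 were tested; the shares of all genes given above for each comparison are the background of these counts. In GalN/LPS against saline livers, where 52.9% of all genes changed, the ligand shedding list had 6 of 7 genes higher, 0 lower and a median log2 fold change of 1.34, beside 0.02 for all genes. Rhbdf2, a carrier that matures the main EGF-ligand sheddase Adam17, rose by 2.19 ± 0.22, and the metalloproteases Adam15 and Adam9 rose by 2.68 ± 0.29 and 1.21 ± 0.13. The 6 also included the metalloprotease inhibitor Timp3 (4.37), so this count mixes shedding genes with an inhibitor. Of 11 genes for HGF activation and its inhibitors 5 were higher and 0 lower (median 1.05). They included the urokinase receptor Plaur (6.40 ± 0.46), the membrane protease St14 (2.43 ± 0.40) and the inhibitor Spint1 (2.38). Timp3 and Spint1 were named here after their values were seen. Of 3 other receptors, Erbb2, the usual partner of Erbb3, rose by 2.35 ± 0.36, on 202 reads in GalN/LPS and 45 in saline livers. Mst1r, the relative of Met, was also called higher, but on 34 reads in GalN/LPS livers and 2 reads in saline livers, which leave the size of its rise uncertain. Erbb4 was not past the test (-0.19 ± 0.51). Of the 7 other ligands only Mst1, which binds Mst1r, and the neuregulin Nrg4 had enough reads to test, and Mst1 rose by 0.60 ± 0.15 while Nrg4, a ligand of Erbb4, fell (-1.58 ± 0.31). Markers of cholangiocytes, the bile duct cells, had 5 higher and 0 lower of 5 tested (median 1.88). Their part in these lists was not tested.

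Of 13 receptor feedback inhibitors 9 were higher and 3 lower in GalN/LPS against saline livers (median 1.28). The RAS-ERK inhibitors Spry4 (3.55 ± 0.37) and Spred1 (2.30 ± 0.26) rose. Errfi1, which binds and blocks the kinase of Egfr, fell (-2.44 ± 0.17, adjusted p = 8.742e-09), at 121 ± 11.1 CPM in GalN/LPS livers and 660 ± 147 CPM in saline livers (SD, n = 3 each). Among 11 ERK-responsive transcripts 8 were higher and 0 lower (median 2.65), with the phosphatase Dusp5 at 4.43 ± 0.37, the transcription factor Maff at 3.06 ± 0.26 and Ier3 at 6.97 ± 0.66. Of the 22 adaptors and kinases 5 were higher and 6 lower (median -0.05), a share near that of all genes, and 2 were higher and 8 lower with library totals. The docking protein Gab2 rose (3.89 ± 0.32), and the PI3-kinase subunit Pik3r1 (-1.68 ± 0.18) and the exchange factor Sos1 (-1.46 ± 0.18) fell. Neutrophil and monocyte markers rose beside these lists, 8 of 8 and 5 of 5 called higher, with summed neutrophil markers of 835 to 1125 CPM in GalN/LPS livers and 19.0 to 85.7 CPM in saline livers. Their part in the list counts was not tested.

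In pretreated against GalN/LPS livers, where 54.5% of all genes changed, the ERK-responsive list had 9 of 11 genes lower and 0 higher (median -1.94, beside -0.10 for all genes). Dusp5 fell (-2.94 ± 0.31), to 1.49 ± 0.594 CPM in pretreated livers (SD, n = 4) against 11.5 ± 2.81 CPM in GalN/LPS livers (SD, n = 3), as did Phlda1 (-2.30 ± 0.51) and the AP-1 member Fosl1 (-2.50 ± 0.59). Of 13 feedback inhibitors 9 were lower and 0 higher (median -1.07), and 13 were lower with library totals, with Spry4 at -3.49 ± 0.35, Spred1 at -2.16 ± 0.24 and the ERK phosphatase Dusp6 at -1.77 ± 0.25. Spry4 was at 1.38 ± 0.901 CPM in pretreated livers (SD, n = 4) and 16.0 ± 3.91 CPM in GalN/LPS livers (SD, n = 3). The shedding list had 6 lower and 1 higher of 7 (median -1.04), with Rhbdf2 at -1.84 ± 0.20, its relative Rhbdf1 at -1.21 ± 0.21 and the metalloprotease inhibitor Timp3 at -2.66 ± 0.49. The gene called higher was Adam9 (0.48), named here after its value was seen, and its sign turned with library totals (-0.03).

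For HGF activation 5 genes were higher and 5 lower in pretreated against GalN/LPS livers (median -0.77), and 0 higher and 6 lower with library totals. Plaur fell (-1.98 ± 0.30), and the HGF activator Hgfac, a liver-made protease, rose by 0.70 ± 0.13, a call lost with library totals (0.20). The other 4 genes called higher, F12, Hpn, Klkb1 and Spint2, were named here after their values were seen. Mst1 rose by 0.68 ± 0.14 and was not past the test with library totals (0.19). Erbb2 fell (-0.95 ± 0.32), a call lost without GalN/LPS 3 and with the replicate block, and the values of Erbb4 (1.07 ± 0.48) and Mst1r (-0.18 ± 0.56) were not past the test. The adaptors and kinases had 3 higher and 8 lower of 22 (median -0.01), a share near that of all genes, and 0 higher and 13 lower with library totals, with Pik3r1 at -1.32 ± 0.18, Gab2 at -1.50 ± 0.26 and the ERK kinase Mapk3 at 0.60 ± 0.11, the last not past the test with library totals (0.08). Neutrophil and monocyte markers were lower beside these lists, 7 of 8 and 4 of 5, and their part was not tested.

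**Figure D4:**
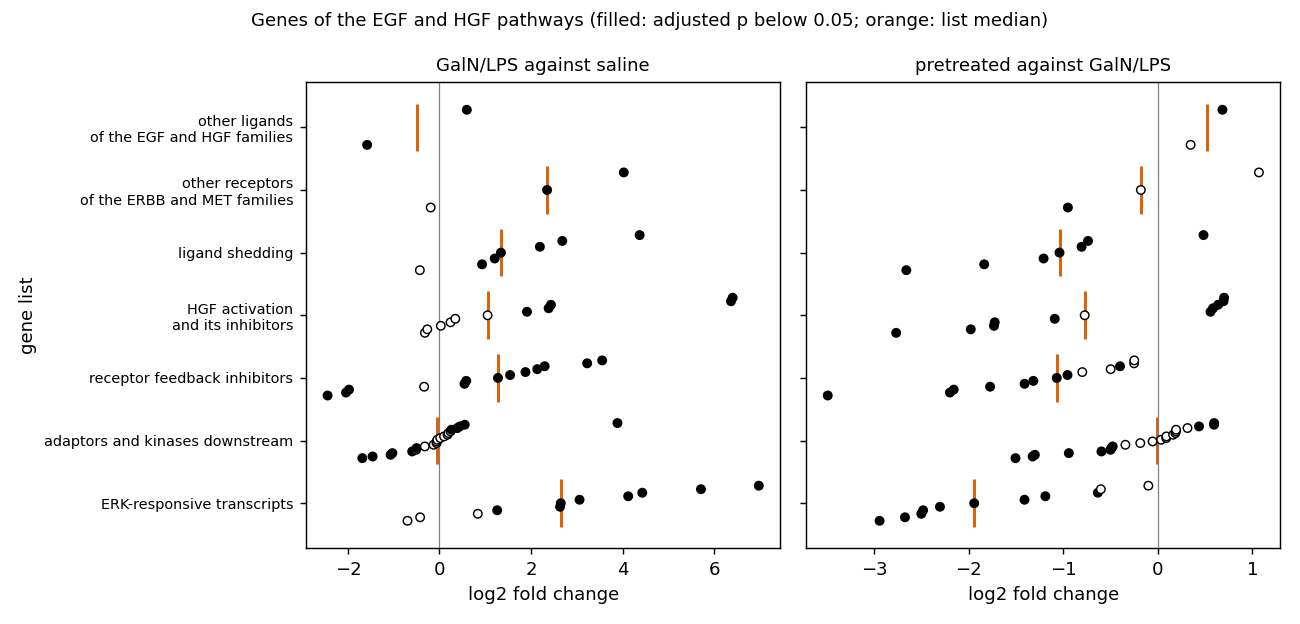
Log2 fold changes of the 69 tested genes in 7 lists of the EGF and HGF pathways, for GalN/LPS against saline and for pretreated against GalN/LPS livers. Each point is a gene, filled where its adjusted p is below 0.05, and the orange line is the list's median, which is 2.65 and -1.94 for the ERK-responsive transcripts in these comparisons.

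In dmPGE2 against saline livers 0 of the 69 pathway genes were called, while with no filter on low counts 5 ERK-responsive transcripts, 1 gene of the HGF activation list and 1 adaptor or kinase were. In pretreated against saline livers, where 65% of all genes changed, 5 of the ERK-responsive transcripts were higher and 3 lower of 11 (3 and 3 with library totals), with Ier3 at 5.57 ± 0.63, Maff at 2.43 ± 0.25 and Phlda1 at -2.73 ± 0.52. Of the feedback inhibitors 1 was higher and 5 lower of 13 there, with Errfi1 (-2.84 ± 0.15), Lrig3 (-3.00 ± 0.28) and Lrig1 (-2.23 ± 0.25) lower. Lrig1 promotes the loss of ERBB receptors. Pik3r1 (-3.01 ± 0.18) and Sos1 (-1.94 ± 0.17) were lower among the adaptors, of which 6 were higher and 7 lower of 22 (1 and 16 with library totals). Of the HGF activation list 8 of 11 were higher and 0 lower, and 2 were higher with library totals. The 8 included Plaur (4.43 ± 0.45), Hgfac (0.94 ± 0.13) and the coagulation factor F12 (0.98 ± 0.15), and with library totals Hgfac (0.26) and F12 (0.30) were not past the test. The interaction was past the test for 35% of all genes, 15.4% higher and 19.6% lower. It was past the test for 9 of 13 feedback inhibitors, all 9 lower, with Spry4 at -3.24 ± 0.54, Spred1 at -2.40 ± 0.36 and Spred2 at -1.60 ± 0.26. Of 7 shedding genes 5 were past the test, all 5 lower, with Rhbdf2 at -2.10 ± 0.29, Rhbdf1 at -1.34 ± 0.31 and Timp3 at -3.28 ± 0.77. It was past the test for 5 of 11 ERK-responsive transcripts, all 5 lower, among them Dusp5 (-2.25 ± 0.59), Phlda1 (-2.46 ± 0.72) and Myc (-2.70 ± 0.88). This count was 3 with the replicate block and 1 to 3 of 11 without GalN/LPS 1 or 3, pretreated 3 or 4, dmPGE2 3, or saline 1 or 2. In the HGF activation list 5 of 11 were past the test, all 5 higher, with Hgfac at 0.92 ± 0.19, Hpn at 0.90 ± 0.20 and Spint2 at 0.77 ± 0.18. With library totals 1 was higher and 3 lower in that list, and Hgfac, Hpn and Spint2 were not past the test. Of the 22 adaptors and kinases 3 were higher and 7 lower, and 0 and 15 with library totals.

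Profiles over the 13 libraries were compared for the 8 genes tested. The closest pair was Erbb3 and Met, whose centred log2 CPM profiles differed by a root mean square of 0.306, and the farthest was Erbb3 and Hbegf, at 3.04. Among 11532 genes at 1 CPM or more, those most like Met were Cpeb3 (0.161), Znrf3 (0.166) and Harbi1 (0.172), and those most like Egfr were Nek6 (0.172), Golim4 (0.173) and Larp1b (0.174). Erbb3 was closest to Narf (0.219), Cgnl1 (0.261) and Ppara (0.293). Hgf was closest to Ednra (0.351), Ddr2 (0.430) and Atp8b2 (0.469), and Ereg to Spry4 (0.521), Tmem252 (0.591) and Cxcr4 (0.592). Those most like Hbegf included Hist4h4 (0.507) and Elf3 (0.820). Tgfa was closest to Fundc2 (0.141), Xpo1 (0.143) and Mkrn1 (0.149), and Btc to Tdrkh (0.293), Ubxn6 (0.298) and Ktn1 (0.299). These distances describe 13 libraries that share the 4 groups.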

How the data were processed

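Bulk mRNA libraries were made from 1 µg of total liver RNA with the NEBNext Ultra RNA kit, per the labels' protocols. HISAT2 and GRCm38/mm10 appear in the submitters' processing notes; neither the counter, the annotation release nor the strand setting is given in the sources used here. The deposited table of raw counts held whole numbers in 13 columns, and the authors' deposited FPKM table was used only to order genes per length and as an alternative. The column names say ALF where the labels say D-galactosamine and LPS, and the series' design text says AILI; the labels were followed.

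Counts were fitted for all 13 libraries with edgeR 4.0.16 in R 4.3.3: genes kept by filterByExpr on group (14280 of 54532, 99.92% of counts), TMM factors, quasi-likelihood F tests (two-sided) and Benjamini-Hochberg adjustment over all genes tested, with 0.05 as the threshold. The 5 comparisons were those of the report. Intervals are 95% and come from the same fit. The log2 CPM used for likeness had a prior count of 2. Alternatives were library totals, RLE factors, DESeq2 1.42.0, other filters, the compared groups alone, a replicate block, limma 3.58.1 on log2(FPKM + 0.1) or log2(FPKM + 1), and leaving out each library. The scripts were tested on simulated data. Replicate numbers were not treated as pairs: of 18 same-numbered pairs 0 correlated above 0.1, which does not exclude a pairing or a shared batch. No libraries of a group agreed within sampling noise. Besides the 9 genes, the text names genes from among the 3 of smallest adjusted p in a list and comparison, and the 3 genes most like each of the 8 tested. A gene that this rule selects is not reported here. The members and lists were chosen with earlier results of these data known.

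Genes that overlap the 9 had few reads (39 for Egfros, within Egfr, over 13 libraries). On the strand of Hgf, which had 855 reads, the overlapping Gm43489 and Gm42975 had 34 and 10 reads.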

Additional observations from a re-analysis of the deposited data

Results flagged for a closer look

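Hbegf in pretreated livers had a library far from the others, pretreated 1 at 8.41 CPM against 1.50, 0.250 and 0.338 CPM in the rest of the group. Areg in pretreated livers was flagged by the same distance rule at 0.0846 CPM in pretreated 4, which is 1 read against 0 in the other pretreated libraries. For Areg the flag follows from a single read, since any group with 1 read in all is flagged. For normally distributed values about 1 in 20 groups of 4 would be flagged by chance. The rate for CPM of scarce genes such as Hbegf was not measured.

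The effect of dmPGE2 differed between injured and uninjured livers for 3 genes by the interaction test, although the time since dmPGE2 may differ too. The difference was 0.94 on the log2 scale for Egfr, -0.69 for Tgfa and -2.64 for Hgf. Of all genes tested 35% passed this test, and with library totals the Egfr difference did not (0.39, adjusted p = 0.1684).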

How the results depend on the processing

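Of 912 values of the 8 tested genes recomputed under 23 alternatives, 816 kept their direction and side of the threshold, 41 fell below it, 20 passed it and 35 changed sign. Of these alternatives only library totals left out scaling of the TMM kind. The deposited FPKM already carried a scaling close to TMM. Relative to read totals, their denominators were 0.706 to 0.871 in pretreated and 1.16 in saline livers. The genes called for dmPGE2 against saline livers were 277 with DESeq2, 461 with no filter on low counts, 16 with limma on log2(FPKM + 1) and 8 with limma on unfiltered log2(FPKM + 0.1), against 0 as reported, and 0 to 27 when each library was left out. For pretreated against saline livers 3 of the 9 genes were called with limma on log2(FPKM + 1) and on unfiltered FPKM, against 5 as reported. For the interaction 5 were called with no filter and with limma on log2(FPKM + 0.1) and log2(FPKM + 1), against 3. The causes were not tested.

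Signs changed as follows. With library totals, log2 differences were -0.070 for Tgfa in GalN/LPS against saline, -0.33 for Met in pretreated against GalN/LPS, 0.039 for Egfr in dmPGE2 against saline, -0.61 for Egfr and -0.27 for Ereg in pretreated against saline, and -0.42 for Erbb3 and -0.53 for Btc in the interaction. With no filter they were -0.038 for Tgfa in GalN/LPS against saline, 0.0023 for Egfr in dmPGE2 against saline and -0.090 for Egfr in pretreated against saline. Egfr in pretreated against saline was -0.10 with the compared groups alone and -0.013 with limma on log2(FPKM + 0.1), filtered or not, and -0.012 with limma on log2(FPKM + 1). Erbb3 in the interaction was -0.028 with limma on log2(FPKM + 1). Leaving out each library gave -0.031 to 0.13 for Tgfa in GalN/LPS against saline, -0.070 to 0.049 for Egfr and -0.38 to 0.51 for Hbegf in dmPGE2 against saline, -0.051 to 0.17 for Egfr and -0.67 to 0.74 for Ereg in pretreated against saline, and -0.16 to 0.27 for Btc and -0.11 to 0.048 for Met in the interaction.

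With the replicate block the interaction was -0.14 for Btc and -2.59 for Hgf, the last no longer past the test (adjusted p = 0.05388), and Tgfa in pretreated against GalN/LPS livers was -0.35 (adjusted p = 0.06635). Depth limits Areg (8 reads in all), Ereg and, in uninjured livers, Hbegf.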
